A study of Mus musculus with 2 samples.

Results

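The genes described here encode the subunits of the proteasome, the factors that assemble it and the proteins that activate or inhibit it. Members were all symbols made of Psma, Psmb, Psmc, Psmd, Psme, Psmf or Psmg and a number, without Psmb8 and Psmb9, which gave 46 of the 23284 symbols listed for both libraries. RNA-seq compared E14.5 FL LSK CD48- cells of ESAM-null fetuses, which carry a conventional Esam deletion in every cell type, with those of WT fetuses. LSK CD48- cells lack lineage markers and CD48 but carry c-Kit and Sca-1, and this fraction is enriched in HSCs. There was 1 library per genotype, the number of fetuses behind each is not stated, and the sample labels also speak of plating in methylcellulose. No difference therefore has a replicate check or a p-value, and levels are FPKM, which are scaled to transcript length and library size.

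The proteasome degrades proteins tagged with ubiquitin. Its core particle is a barrel of stacked rings, in which alpha subunits form the gate and beta subunits hold the proteolytic sites. The regulatory particle consists of a base, whose ATPases unfold substrates, and a lid, which removes ubiquitin. HSCs are known for a low rate of protein synthesis and for their sensitivity to misfolded proteins.

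Esam was 117.6 FPKM in WT against 12.1 FPKM in ESAM-null, so the targeted gene was lower in the library labelled ESAM-null. From the steps between the lowest values, an estimated 8.95e+06 (WT) and 1.09e+07 (ESAM-null) reads stood behind the listed levels, and 95% intervals from these approximate reads cover counting error only. All 7 HSC and progenitor markers examined were above 0 in both libraries, with summed levels of 611 FPKM in WT against 630.3 FPKM in ESAM-null. Cd48, whose protein was gated out, had 16.6 and 22.0 FPKM. Of 8 macrophage markers 5 were listed at 0 in ESAM-null and none in WT, with sums of 10.6 and 16.0 FPKM, and of 8 hepatocyte markers 5 and none, with sums of 37.1 and 42.4 FPKM. The sums were 33.0 FPKM in ESAM-null and 34.9 FPKM in WT for 6 endothelial markers, 4.19 and 8.66 FPKM for 3 lineage markers and 175 and 469.6 FPKM for 6 erythroid markers. Markers listed at 0 in ESAM-null were Emr1, C1qa, Cd5l, Vcam1 and Marco of macrophages, Alb, Apoa2, Ttr, Serpina1a and Ahsg of hepatocytes, Lyve1 of endothelium and, in both libraries, Cd3e. Other markers were higher in ESAM-null, namely Csf1r and C1qc of macrophages, Afp and Apoa1 of hepatocytes and 3 of the 6 endothelial markers. The erythroid sum was carried by Hba-a2, at 57.1 FPKM in ESAM-null and 373 FPKM in WT, whereas Hbb-b1 was 114 and 78.8 FPKM. In such bulk samples, fewer cells of a type and less RNA per cell cannot be told apart, and the part of these markers in the values below was not tested.

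Proteasome genes were abundant in both libraries, and most were modestly higher in ESAM-null. All 46 were above 0 in both libraries and 34 had at least 100 FPKM in both. Of the 45 at 1 FPKM or more in either library, 40 had a ratio of ESAM-null to WT above 1 and 5 were below 1. The same split was 28 to 17 once both libraries were brought to the same FPKM total of 1000000, a step that lowers all log2 ratios (-0.28). Over all 12066 genes at that level, 50.0% had a ratio above 1 as deposited and 32.4% after rescaling. Median and upper quartile scaling moved log2 ratios by -0.02 and 0.01 and left 39 and 41 members above 1. The counting interval of the ratio lay above 1 for 36 of the 45, below 1 for 3 and across 1 for 6. After rescaling to equal totals, it lay above 1 for 22 and below 1 for 14. The share of all genes with such intervals is not given here, so these counts cannot be set against other genes. Abundant genes mostly had ratios above 1 as well, 83.2% of the 1465 genes at 100 FPKM or more in either library.

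**Figure D1:**
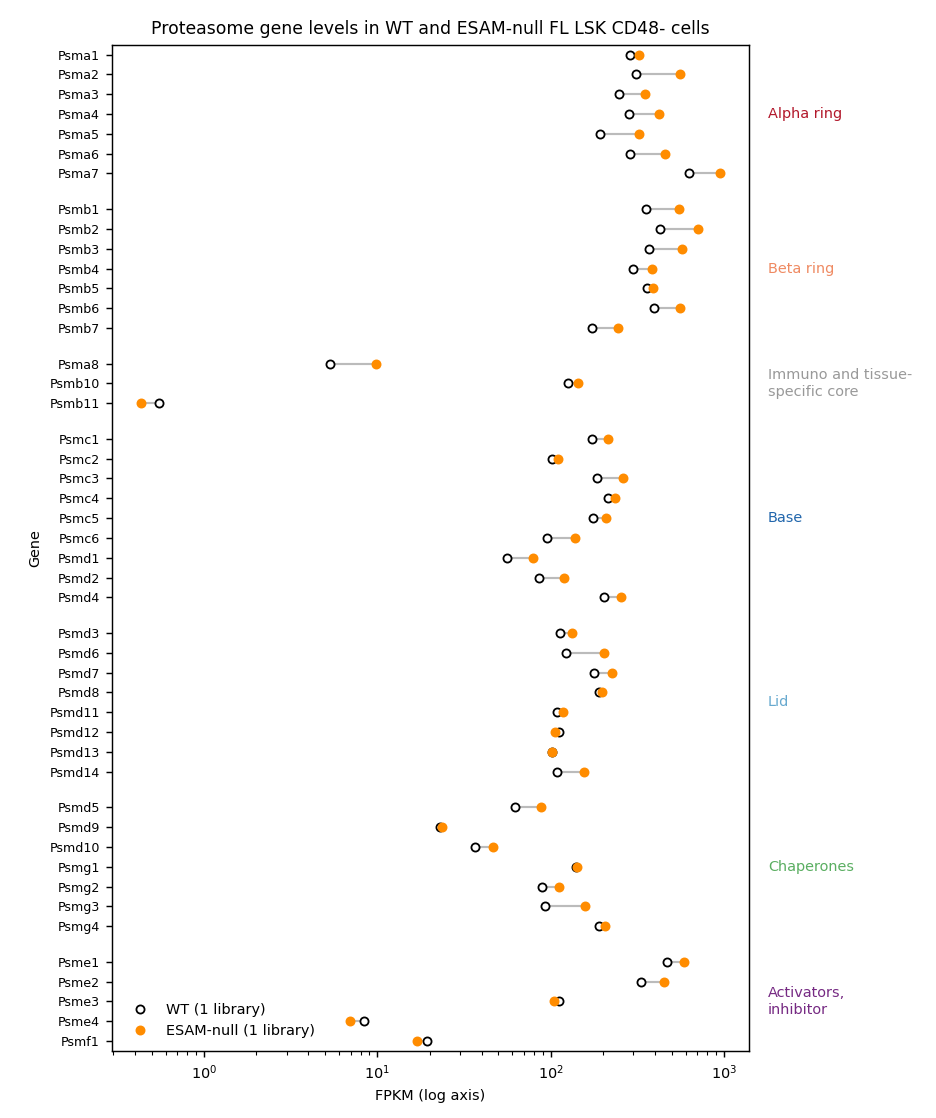
FPKM of each of the 46 members (rows, grouped by role) on a log axis, with open circles for the WT library and filled circles for the ESAM-null library. Core subunits lie to the right, from 173 to 631 FPKM in WT, and most filled circles lie to the right of the open ones; Psmb11 is the lowest in both libraries.

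No member was 2-fold lower or higher in ESAM-null, against 12.8% of all genes lower and 7.42% higher. Those shares are over genes at 1 FPKM or more in either library, and the 2-fold shares among abundant genes are not given here. At 1.5-fold, 11 members were higher and none was lower, whereas 17.4% of all genes were higher and 21.8% were lower. After rescaling to equal totals, 1 member (Psma8) was 1.5-fold higher. The median log2 ratio of the 45 members was 0.34, a 1.27-fold difference, against -0.00024 over all genes.

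The ratio moved with level over all genes, and proteasome genes are abundant. Among the 4005 genes at 30 FPKM or more in either library, 66.9% had a ratio above 1, 16.4% were 1.5-fold higher and 5.62% were 1.5-fold lower, and the median log2 ratio was 0.20. Among the 41 members at that level, 38 had a ratio above 1, 10 were 1.5-fold higher and none was 1.5-fold lower, with a median of 0.36. Among the 1465 genes with at least 100 FPKM, 83.2% had a ratio above 1, 24.2% were 1.5-fold higher and 3.21% were 1.5-fold lower, with a median of 0.36. The 38 members at that level had 35 ratios above 1, 10 of them 1.5-fold higher and none 1.5-fold lower, with a median of 0.35. At 100 FPKM or more, the median of the proteasome genes was thus close to that of other abundant genes.

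**Figure D2:**
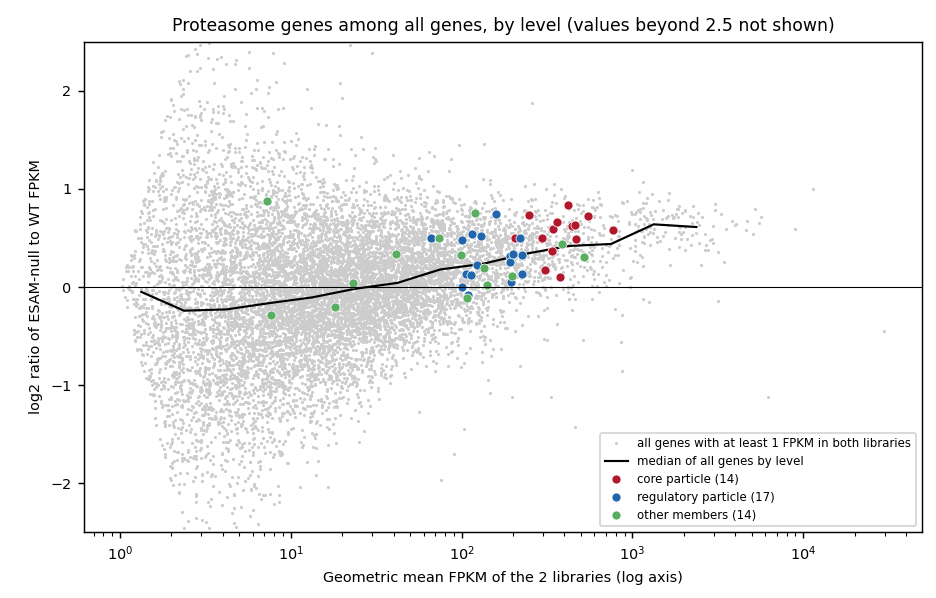
Log2 ratio (ESAM-null over WT FPKM, vertical axis) against the geometric mean FPKM of the 2 libraries (log axis), with genes of at least 1 FPKM in both libraries in grey and their running median as a black line. The median line rises with level, and the core particle (red), regulatory particle (blue) and other members (green) are plotted over it, mostly toward the right.

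The alpha ring, which docks regulators and gates the barrel, was higher in ESAM-null for all 7 subunits (median log2 ratio 0.59) and for 6 of 7 (median 0.31) after rescaling to equal totals. Psma7, the most abundant member in both libraries, was 631 FPKM in WT against 947 FPKM in ESAM-null, past 1.5-fold (95% counting interval 1.44 to 1.56). Psma2 was 312 FPKM in WT against 559 FPKM in ESAM-null, a ratio of 1.79 (1.74 to 1.84), the highest of the ring. Psma5 went from 193 FPKM in WT to 322 FPKM in ESAM-null and Psma6 from 287 to 455 FPKM, both past 1.5-fold. Psma4 went from 281 to 423 FPKM, also past 1.5-fold. Psma4 and Psma7 were only just past it, and after median scaling both fell short, at 1.48-fold. Psma3 was 249.1 and 351 FPKM. Psma1 was the least different at 288 FPKM in WT against 325 FPKM in ESAM-null, and its ratio of 1.13 was under 1 after rescaling to equal totals. Levels spanned 3.26-fold within the ring in WT and 2.94-fold in ESAM-null, although the assembled ring holds equal numbers of each subunit.

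The 7 constitutive beta subunits were also all higher in ESAM-null (median log2 ratio 0.50), and 6 of 7 were (median 0.22) after rescaling to equal totals. The structural subunits Psmb1, Psmb2 and Psmb3 were past 1.5-fold. Psmb2 was 429.6 FPKM in WT against 712 FPKM in ESAM-null, Psmb3 was 370.1 and 574 FPKM, and Psmb1 was 356 and 549 FPKM. Psmb4, the last subunit to join the ring, was 297 and 382 FPKM. None of the 3 catalytic subunits reached 1.5-fold. Psmb6, with caspase-like activity, was 395 FPKM in WT against 554 FPKM in ESAM-null, and Psmb7, with trypsin-like activity, was 173 and 245 FPKM. Psmb5, with chymotrypsin-like activity and the target of bortezomib, was 362 FPKM in WT against 389.7 FPKM in ESAM-null, a ratio of 1.08 (1.02 to 1.14), which was below 1 after rescaling to equal totals.

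In the immunoproteasome, found in hematopoietic cells and induced by interferon, Psmb9, Psmb10 and Psmb8 replace Psmb6, Psmb7 and Psmb5. Psmb10 was 125.5 FPKM in WT against 144 FPKM in ESAM-null, a ratio of 1.15 (1.07 to 1.23) that was below 1 after rescaling to equal totals. Psmb8 and Psmb9 lie outside the member rule and were named after their values were seen. Psmb8 was 195 FPKM in WT against 193 FPKM in ESAM-null, and Psmb9 was 125 FPKM in both. Ratios within a library do not depend on its scaling. Psmb6 over Psmb9 was 3.17 in WT and 4.43 in ESAM-null, a 1.40-fold gain (95% counting interval 1.27 to 1.53). Psmb7 over Psmb10 was 1.38 and 1.70, 1.23-fold higher (1.12 to 1.36), and Psmb5 over Psmb8 was 1.85 and 2.02, 1.09-fold higher (1.01 to 1.18). All 3 constitutive subunits thus took a larger share of their pair in ESAM-null, by amounts for which the spread between libraries of 1 genotype is not known. Transcripts of Psmb6, Psmb7 and Psmb5 were 798, 1160 and 899 bases, each shorter than its counterpart at 1352, 1311 and 1628 bases. Over all genes at 30 FPKM or more in either library, the ratio was higher for shorter transcripts. The median log2 ratio there was 0.54 for 200 to 1000 bases and 0.23 for 1000 to 2000 bases. The part of length or of level in these pair ratios was not tested.

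**Figure D3:**
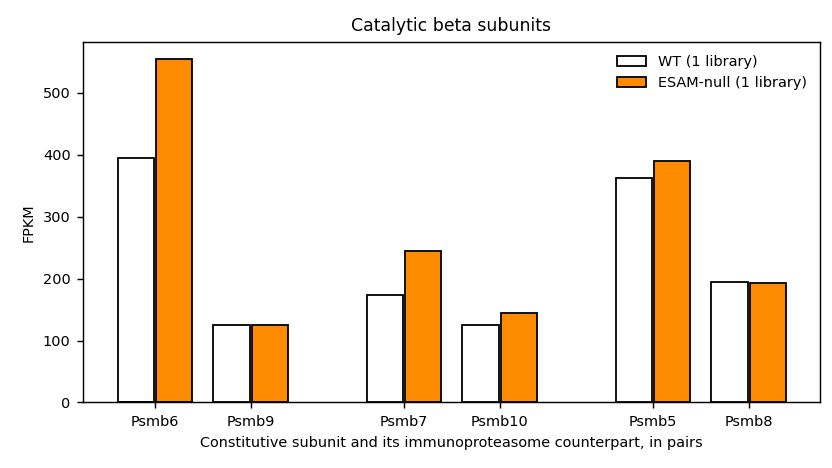
FPKM of the 3 catalytic beta subunits, each beside its immunoproteasome counterpart, in WT (white bars) and ESAM-null (orange bars), 1 library each. Psmb6 and Psmb7 are visibly higher in ESAM-null, from 395 to 554 and from 173 to 245 FPKM, whereas Psmb9 and Psmb8 have nearly level bars.

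Tissue-specific core subunits were low. Psma8, the alpha subunit of testis proteasomes, was 5.35 FPKM in WT against 9.84 FPKM in ESAM-null (roughly 75 and 149 reads), a ratio of 1.84 (1.38 to 2.46). Psmb11, the beta subunit of thymic cortical epithelium, was 0.551 and 0.434 FPKM on about 21 and 18 reads, and no difference was detectable at this depth. Psmb11 was the 1 member under 1 FPKM in both libraries.

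The 250 bases before the start site of Psmb5, Psmb6 and Psma2 are shown because Psmb5 and Psmb6 held an antioxidant response element core, among the 11 of 14 constitutive core genes with a RefSeq window, and Psma2 had the highest ratio of the constitutive core. Nfe2l1, a transcription factor known to drive proteasome genes, binds antioxidant response elements, whose core was searched as TGACNNNGC on both strands, and the NF-Y element was searched as CCAAT on both strands. Capitals mark either motif, sequences run 5′ to 3′ on the gene's strand, and they are from RefSeq on GRCm38.p6, the same assembly as mm10. Psmb5 lies on the minus strand (chr14:54617996-54618245), and Psmb6 (chr11:70525107-70525356) and Psma2 (chr13:14612992-14613241) lie on the plus strand.
Psmb5: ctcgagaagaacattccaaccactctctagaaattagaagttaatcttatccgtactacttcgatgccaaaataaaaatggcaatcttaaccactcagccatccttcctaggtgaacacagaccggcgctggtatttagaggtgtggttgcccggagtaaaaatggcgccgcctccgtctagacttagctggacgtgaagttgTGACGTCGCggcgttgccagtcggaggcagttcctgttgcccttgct
Psmb6: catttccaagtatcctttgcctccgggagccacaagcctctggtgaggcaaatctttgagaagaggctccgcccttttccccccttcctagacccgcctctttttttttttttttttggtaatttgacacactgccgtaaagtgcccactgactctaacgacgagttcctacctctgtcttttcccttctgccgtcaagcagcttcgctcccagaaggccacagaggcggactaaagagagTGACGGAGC
Psma2: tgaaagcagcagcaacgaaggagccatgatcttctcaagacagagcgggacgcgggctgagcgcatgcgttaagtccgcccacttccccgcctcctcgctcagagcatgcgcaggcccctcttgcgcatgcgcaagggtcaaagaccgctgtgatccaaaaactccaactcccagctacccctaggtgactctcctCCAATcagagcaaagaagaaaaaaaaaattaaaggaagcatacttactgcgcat

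The element core began 47 bases before the start site in Psmb5 and 9 bases before it in Psmb6, whose ratios were 1.08 and 1.40. The window of Psma2 held a CCAAT box beginning 54 bases before the start. Over windows of 300 bases (250 before and 50 after the start), 6 of 38 members with a RefSeq window held TGACNNNGC, 15.8% against 13.99% of 27025 genes. CCAAT was held by 13 members, 34.2% against 41.1% of genes, and the motifs overlapped in 0 windows. The 6 members with TGACNNNGC were Psmb5, Psmb6, Psmc6, Psmd9, Psmd12 and Psme4, with ratios from 0.823 to 1.45 and a median log2 ratio of 0.07. The other 31 with a window and 1 FPKM had a median of 0.34, and the difference was not tested. A match is a description of letters and not of binding.

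The 9 base genes were all higher in ESAM-null, 6 of 9 after rescaling to equal totals, and none reached 1.5-fold. The 6 ATPases had a median log2 ratio of 0.29, or 0.011 after rescaling. Psmc6 was 95.04 FPKM in WT against 138 FPKM in ESAM-null, and Psmc3 was 186 and 263 FPKM, with ratios of 1.45 and 1.42. Psmc1 was 172 and 215 FPKM and Psmc5 was 175 and 209 FPKM. Psmc4, at 216 and 236 FPKM, and Psmc2, at 101 and 111 FPKM, each had a ratio of 1.09 and were below 1 after rescaling, as was Psmc5. The large scaffold subunits Psmd1 and Psmd2, which receive ubiquitin-carrying shuttles, were 55.7 and 85.4 FPKM in WT against 78.6 and 119 FPKM in ESAM-null. Psmd4, a ubiquitin receptor, was 202 and 254 FPKM.

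The 8 lid genes named Psmd were mixed, with 6 higher in ESAM-null as deposited, 3 after rescaling to equal totals and a median log2 ratio of 0.18. Psmd6 was 122 FPKM in WT against 204 FPKM in ESAM-null, a ratio of 1.67 (1.56 to 1.79), and was the 1 of these 8 past 1.5-fold. Psmd14, the deubiquitinase that removes ubiquitin chains from substrates, was 109 and 156 FPKM. Its partner Psmd7 was 179 and 226 FPKM. Psmd12 and Psmd13 stood apart, as Psmd12 was 112 FPKM in WT against 107 FPKM in ESAM-null, and Psmd13 was 101.2 FPKM in both. The intervals of their ratios, 0.888 to 1.013 and 0.935 to 1.07, include 1, and Psmd13 was above 1 after upper quartile scaling. Psmd8 was 191 and 198 FPKM, and the interval of its ratio, 0.983 to 1.10, also includes 1. Psmd11 was 109 and 119 FPKM and Psmd3 was 113 and 133 FPKM, and both, like Psmd8, were below 1 after rescaling.

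**Figure D4:**
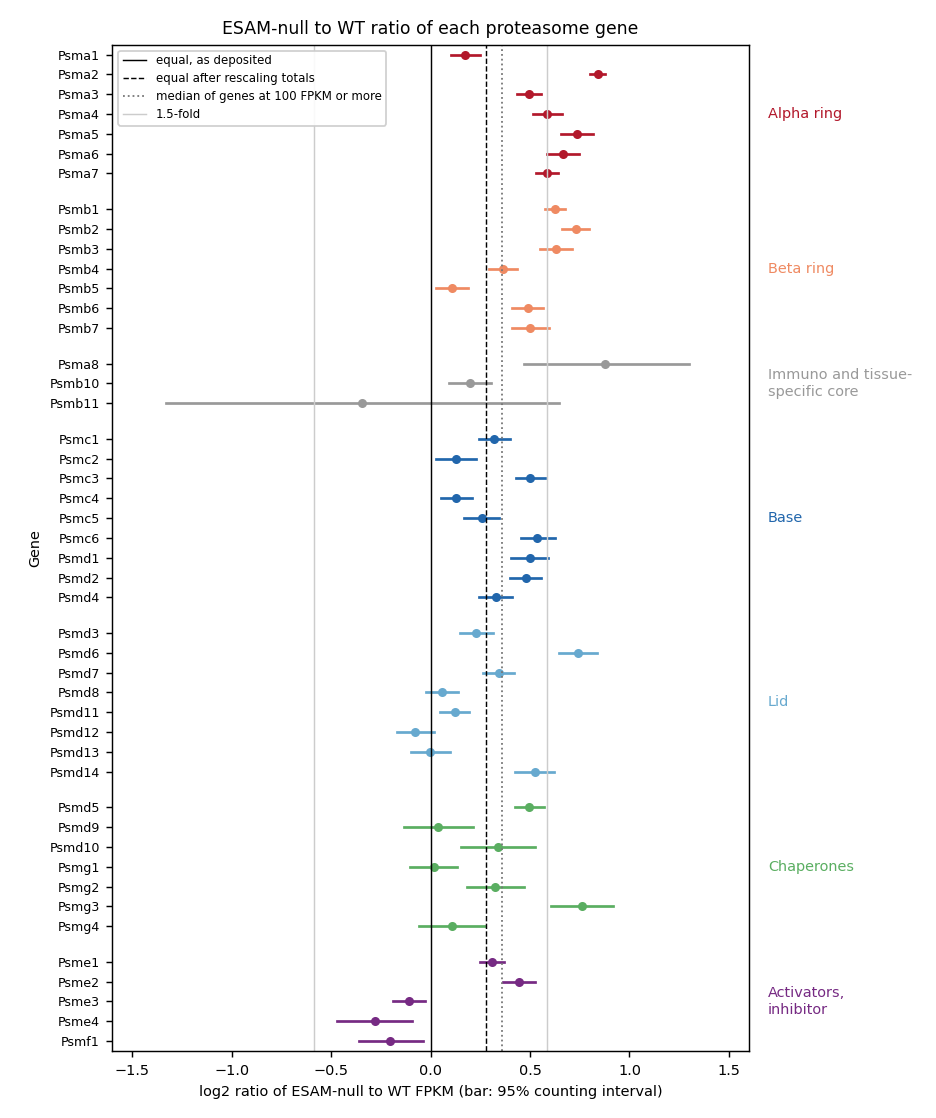
Log2 ratio (ESAM-null over WT FPKM) of each member, grouped by role, with bars for 95% counting intervals. The solid line marks equal FPKM, the dashed line equality after rescaling to equal totals and the dotted line the median of genes at 100 FPKM or more (0.36). To the right of the dashed line lie 12 of the 14 constitutive core subunits and 9 of 17 of the regulatory particle. Over all genes at 1 FPKM or more in either library, 32.4% lie there. At 100 FPKM or more the median of all genes after rescaling was 0.083, also to the right of it.

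Core genes stood higher relative to the Psmc and Psmd genes of the regulatory particle inside the ESAM-null library, and library scaling does not enter this contrast. The geometric mean of the 14 core genes was 2.45 times that of the 17 regulatory particle genes in WT and 2.88 times in ESAM-null, 1.18-fold higher. Against the lid alone it was 2.49 and 3.06 times, 1.23-fold higher, and against the base 2.40 and 2.73 times. The regulatory particle subunits Shfm1 and Adrm1 fall outside the member rule and are not in these means. With both added, chosen after their values were seen, core over regulatory particle was 2.21 in WT and 2.57 in ESAM-null, 1.16-fold higher, and with Shfm1 added to the lid, core over lid was 2.01 and 2.37, 1.18-fold higher. Core genes made up 0.615% of all FPKM in WT and 0.744% in ESAM-null, whereas the 17 regulatory particle genes made up 0.309% and 0.315%, or 0.442% and 0.497% with Shfm1 and Adrm1. Core genes were also the more abundant, with a WT median of 305 FPKM against 113 FPKM for the 17 regulatory particle genes. Over all genes the ratio rose with level, to medians of 0.20 at 30 FPKM or more and 0.36 at 100 FPKM or more. The part of level in the contrast was not tested. Transcript length moved with the ratio as well. Among genes at 30 FPKM or more in either library, the median log2 ratio was 0.54 for transcripts of 200 to 1000 bases (514 genes), 0.23 from 1000 to 2000 bases (1353 genes) and 0.07 from 2000 to 4000 bases (1406 genes). Core transcripts ran from 766 to 2911 bases and regulatory particle transcripts from 1304 to 3112 bases. Among members of 1000 to 2000 bases, 7 core genes had a median of 0.50 and 12 regulatory particle genes 0.29, and the 6 core genes under 1000 bases had a median of 0.61. The 5 regulatory particle genes of 2000 to 4000 bases had a median of 0.48, close to that of the 7 core genes and above that of all genes in their length class.

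Assembly chaperones, which leave the finished particle, were higher for 7 of 7 as deposited, 6 of 7 after median scaling and 4 of 7 after rescaling to equal totals. Psmg3, which with Psmg4 helps build the alpha ring, was 92.6 FPKM in WT against 157 FPKM in ESAM-null, a ratio of 1.69 (1.52 to 1.89). Psmg4 itself was 190.2 and 205 FPKM, so that the partners differed in ratio. The other pair of this ring, Psmg1 and Psmg2, was 139 and 89.2 FPKM in WT against 141 and 112 FPKM in ESAM-null. Among the base chaperones, Psmd5 was 62.5 FPKM in WT against 88.2 FPKM in ESAM-null, Psmd10 (gankyrin) was 36.7 and 46.4 FPKM and Psmd9 was 22.9 and 23.6 FPKM. The intervals of Psmg1, Psmg4 and Psmd9 include 1.

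The alternative activators and the inhibitor differed in direction. Psme1 and Psme2, which together form the interferon-inducible ring that opens the barrel, were 471 and 333 FPKM in WT against 584 and 453 FPKM in ESAM-null, with ratios of 1.24 and 1.36, and both were above 1 under each scaling. Psme3, the nuclear activator, was 112 FPKM in WT against 104 FPKM in ESAM-null, a ratio of 0.928 (0.878 to 0.980). Psme4, a large activator linked to acetylated histones, was 8.40 and 6.91 FPKM, a ratio of 0.823 (0.721 to 0.937). Psmf1, an inhibitor of the core particle in vitro, was 19.4 and 16.9 FPKM, a ratio of 0.870 (0.778 to 0.972). Psme3, Psme4 and Psmf1 were the 3 members whose counting interval lay below 1 as deposited, and they stayed lower in ESAM-null under each scaling. Their transcripts were 2664, 6491 and 3809 bases long, against 1112 bases for Psme1 and 878.5 (median of 2 transcripts) for Psme2. Among genes at 30 FPKM or more in either library, the ratio was lower for longer transcripts over the lengths compared, 200 to 4000 bases. Psme4 and Psmf1 were under 30 FPKM in both libraries and so were not among them. Over all genes, the ratio was lower at lower levels. The part of length or level in these directions was not tested. Psme1 over Psme3 was 4.20 in WT and 5.61 in ESAM-null, 1.34-fold higher (1.25 to 1.43). Psme1 over its partner Psme2 went the other way, at 1.41 in WT and 1.29 in ESAM-null, a ratio of 0.912 (0.851 to 0.977).

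The accessory list holds other parts of the pathway, and 31 of its 32 listed genes reached 1 FPKM in either library, while Ddi1 was listed at 0 in both. Of these, 5 were 1.5-fold higher and 4 were 1.5-fold lower, 19 ratios were above 1 and the median log2 ratio was 0.11. Over all genes, 17.4% were 1.5-fold higher, 21.8% were 1.5-fold lower and 50.0% had a ratio above 1. After rescaling to equal totals the counts were 0 and 10, with a median of -0.17. Among those past 1.5-fold were a subunit and an assembly factor of the particle. Shfm1, the small lid subunit now named Sem1, was 867 FPKM in WT against 1517 FPKM in ESAM-null, and Pomp, the maturation factor of the beta ring, was 398 and 623 FPKM. Adrm1, a ubiquitin receptor of the base, was 129 and 147 FPKM.

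Both related transcription factors were past 1.5-fold. Nfe2l1 was 16.0 FPKM in WT against 25.4 FPKM in ESAM-null, a ratio of 1.58 (1.43 to 1.75), and Nfe2l2, the oxidative stress factor of the same family, was 23.2 and 39.2 FPKM. The enzymes that process the Nfe2l1 protein were lower. Ngly1, its deglycosylase, was 25.7 FPKM in WT against 16.9 FPKM in ESAM-null, 1.52-fold lower, and Ddi2, its protease, was 16.4 and 12.3 FPKM, short of 1.5-fold. Tpp2, a peptidase that acts after the proteasome, was 22.0 and 12.97 FPKM, 1.70-fold lower. The shuttle genes Ubqln4, from 36.5 to 21.7 FPKM, and Ubqln1, from 41.0 to 26.4 FPKM, were past 1.5-fold, and Ubqln2 was 7.51 and 5.09 FPKM. These lower genes had at most 41.0 FPKM in WT, with transcripts from 2632 bases (Ngly1) to 9553 bases (Ddi2). Nfe2l1 and Nfe2l2, at similar levels and with median transcript lengths of 4071.5 and 1961 bases, were higher. The part of length or level in these directions was not tested.

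Among ubiquitin genes, Rps27a, a fusion with a ribosomal protein, was 1391 FPKM in WT against 2408 FPKM in ESAM-null, past 1.5-fold. The polyubiquitin gene Ubb was 1029.9 and 1277 FPKM. Of the deubiquitinases of the regulatory particle, Usp14 was 40.6 FPKM in WT against 60.0 FPKM in ESAM-null and Uchl5 was 93.2 and 90.5 FPKM. Vcp, the ATPase that extracts ubiquitinated proteins, was 239 and 233 FPKM, and Uba1, the main ubiquitin-activating enzyme, was 98.7 and 106 FPKM.

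Exons of 7 members (Psma4, Psmb7, Psmc3, Psmd1, Psmd13, Psme1 and Psmg3) overlap those of another coding gene, and counting is not stated to use strand, so their reads and those of the neighbour cannot be told apart where they overlap. How reads shared with processed pseudogenes were counted is not stated either. The order of the 45 members was close in both libraries, with Spearman's rho of 0.962 and Pearson's r of 0.984 on log2 FPKM across genes, which share the libraries and are not replicates.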

How the data were processed

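RNA was extracted from sorted E14.5 FL LSK CD48- cells, and cDNA from an ultra-low-input kit was read on a sequencer from 1 end (75 bp). Per gene symbol, the authors deposited FPKM for 1 library per genotype. Listed in the submitters' processing notes are mm10, Cuffnorm 2.2.1, SAMtools 0.1.19, Bowtie2 2.2.3 and TopHat2 2.0.13. The gene annotation, the library scaling and the handling of multiply aligned reads, which matters for genes with processed pseudogenes, are not given in the labels or methods used here.

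Ratios (ESAM-null over WT) had no pseudocount and were formed where either library reached 1 FPKM. All members were named, as were accessory genes past 1.5-fold and up to 3 others per role. The values of some accessory genes are not reported here. The members and lists were chosen with earlier results of these data known. Approximate reads came from FPKM, GENCODE M21 transcript lengths (GRCm38) and the value of 1 read, with fragments assumed to be 200 bp (SD 80 bp). A whole read was met to within 0.05 by 67.8% (WT) and 69.4% (ESAM-null) of low genes. Intervals are exact at 95%, and steps were tested on simulated data. Alternatives were filters of 0, 0.1, 5 and 100 FPKM or 1 FPKM in both libraries, pseudocounts of 0.1 and 1 and scaling by the median, upper quartile or total. The software was Python 3.11.15 with scipy 1.17.1, pandas 2.3.3, numpy 2.4.6 and, for plots, matplotlib 3.10.9.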

Additional observations from a re-analysis of the deposited data

How the results depend on the processing

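Filters, pseudocounts of 0.1 and 1, and median or upper quartile scaling kept the counts of members and accessory genes within 1.5 times and their medians within 0.1 of the values as deposited, except for the filter named below. Rescaling to a total of 1000000 changed most. Members at least 1.5-fold higher went from 11 to 1 and their median log2 ratio from 0.34 to 0.063. Accessory genes at least 1.5-fold lower went from 4 to 10, those higher from 5 to 0, and their median reversed from 0.11 to -0.17. A filter of 100 FPKM, chosen after seeing the data, left 3 accessory genes higher and a median of 0.36. It removed Tpp2, Ngly1, Ubqln1 and Ubqln4, the accessory genes 1.5-fold lower as deposited, which were under 100 FPKM in both libraries. No member was past 2-fold in either direction or 1.5-fold lower under any alternative run. No paired analysis was possible because each genotype has 1 library. Counting error was largest for Psmb11 and Psma8, with about 21 and 75 reads in WT, and the spread between libraries of 1 genotype is not known for any gene.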

Other observations

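The COP9 signalosome is a complex related to the proteasome lid that removes Nedd8 from cullin ubiquitin ligases. All 9 of its genes listed had at least 1 FPKM, and 6 had a ratio of ESAM-null to WT above 1, or 4 after rescaling to equal totals, with a median log2 ratio of 0.17. Over all genes at 1 FPKM or more in either library, 50.0% had a ratio above 1 as deposited and 32.4% after rescaling, and at 30 FPKM or more 66.9% did as deposited. Cops2 was 19.6 FPKM in WT against 30.8 FPKM in ESAM-null, past 1.5-fold, and Cops6 was 219 and 319 FPKM. Cops5, the catalytic subunit and the relative of Psmd14, was 124 FPKM in WT against 106 FPKM in ESAM-null, opposite in direction to Psmd14 as deposited (109 and 156 FPKM). Cops7b was 17.6 and 13.6 FPKM and Cops8 was 72.1 and 62.9 FPKM. The difference in direction was not tested.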
